A study of Mus musculus with 18 samples.

Results

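The levels of 10 genes that set whether a cell passes from G1 into S phase were followed in C2C12 cells, a mouse myoblast line that stops dividing and fuses into myotubes when serum is reduced. They were chosen by symbol, with earlier results of these data known: the CDK inhibitors Cdkn1a, Cdkn1b, Cdkn2a, Cdkn2b, Cdkn2c and Cdkn2d, the D cyclins Ccnd1, Ccnd2 and Ccnd3, and the retinoblastoma gene Rb1. All 10 were found among the 55450 gene IDs of the count table. Of these, 8 passed the filter on low counts and were tested, while Cdkn2a and Cdkn2b had no counts in any library. Cdkn1a rose with differentiation in every line and was already 6.59-fold higher in knockout than in control myoblasts. Ccnd1 fell and Ccnd3 rose with differentiation in every line. Per kilobase of exon, the D cyclin transcripts were mostly Ccnd1 in control and overexpressor myoblasts and mostly Ccnd3 in knockout myoblasts and in the myotubes of every line. With the longest transcript as the length, overexpressor myoblasts also held more Ccnd3 than Ccnd1. Rb1 was 3.03-fold higher in knockout than in control myoblasts.

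D cyclins bind CDK4 and CDK6, and the complexes phosphorylate Rb1, a pocket protein that holds E2F factors inactive until then. The INK4 inhibitors, encoded by Cdkn2a, Cdkn2b, Cdkn2c and Cdkn2d, bind CDK4 and CDK6 directly, whereas the Cip/Kip inhibitors, encoded by Cdkn1a and Cdkn1b, act on cyclin-CDK complexes more broadly. In muscle, Cdkn1a is a known mark of the permanent cell cycle exit that precedes fusion. Ccnd3 is the D cyclin known to stay in myotubes, and Rb1 is known to take part in the exit.

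Polyadenylated RNA was sequenced from 3 lines, with 3 replicate libraries (A, B and C) in each of the 6 groups. Each line was sampled as myoblasts (titled MB) and again as day 3 myotubes (titled MT). The control was a sorted population that had received the pX458 vector alone. The Dlk1-Dio3 overexpressor (titled 2-4) and the Dlk1-Dio3 knockout (titled 2-7) were lines grown from single cells after CRISPR-Cas9 deletions, made with pairs of guides, in the Meg3 promoter region. Each genotype was therefore 1 line, so genotype and clone cannot be told apart. The p-values measure only the spread between replicate libraries within groups, estimated for each gene over all 6 groups together. Nothing in the labels says that replicates came from separate experiments. Meg3, the noncoding RNA gene at the deletion, had 0 counts in every control and every knockout library and 5222 to 7763 counts in the overexpressor libraries. It separated the overexpressor from the other lines but not the knockout from the control, and the knockout is called so by its label. Totals ran from 41544358 to 79140702 counts per library, and 0 counts allowed a level of at most 0.0375 to 0.0693 CPM (3 counts, counting error only). Levels are given as CPM, counts divided by the library total after TMM scaling. Fewer cells of a type and less RNA per cell cannot be told apart in these bulk libraries. The stage names follow the titles. In knockout myoblasts 7 myotube markers summed to 9170 to 11720 CPM, against 244 to 372 in control myoblasts and 13680 to 14130 in control myotubes. Comparisons of knockout myoblasts, for every gene below, therefore stand beside this difference, whose part was not tested. Replicate libraries differed by more than sampling noise in every pair, so none was counted as a duplicate.

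The promoters of Cdkn1a and Ccnd3 are shown because these genes rose in all 3 lines and were higher in both clones than in the control at both stages. RefSeq windows of 300 bases, 250 before to 50 after an annotated start, on GRCm38.p6, were at hand for 7 of the 10 genes. Capitals mark matches, on either strand, to the E-box CANNTG, which MyoD and myogenin bind, the GC box GGGCGG, the element TATAA, and the p53 consensus element of 20 bases with at most 1 mismatch. The first 2 windows are the starts of Cdkn1a, at chr17:29090729-29091028 and chr17:29093519-29093818 on the plus strand, and the last is the second start of Ccnd3, at chr17:47593217-47593516 on the plus strand.
Cdkn1a start 1: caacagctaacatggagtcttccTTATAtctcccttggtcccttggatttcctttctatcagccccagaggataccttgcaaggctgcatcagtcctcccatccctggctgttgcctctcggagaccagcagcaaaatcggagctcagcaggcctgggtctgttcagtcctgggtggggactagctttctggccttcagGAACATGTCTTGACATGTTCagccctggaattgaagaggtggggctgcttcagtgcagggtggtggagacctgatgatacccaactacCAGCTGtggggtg
Cdkn1a start 2: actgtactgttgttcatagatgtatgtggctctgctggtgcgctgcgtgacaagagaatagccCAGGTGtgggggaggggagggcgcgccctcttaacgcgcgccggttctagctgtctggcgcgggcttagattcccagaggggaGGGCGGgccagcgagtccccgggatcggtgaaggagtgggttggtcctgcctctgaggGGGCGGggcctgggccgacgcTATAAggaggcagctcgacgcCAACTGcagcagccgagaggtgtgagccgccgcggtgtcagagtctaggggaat
Ccnd3 start 2: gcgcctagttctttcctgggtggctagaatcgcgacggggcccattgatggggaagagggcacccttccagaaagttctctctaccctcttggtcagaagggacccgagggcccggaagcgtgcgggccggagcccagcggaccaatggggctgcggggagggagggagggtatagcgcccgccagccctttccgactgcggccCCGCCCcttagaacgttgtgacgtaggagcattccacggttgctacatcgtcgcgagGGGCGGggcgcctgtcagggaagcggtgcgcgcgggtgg
The p53 match of Cdkn1a, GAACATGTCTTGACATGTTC, began at position -51 from the annotated start in the first window, which also held an E-box at 38 and TATAA, on the minus strand, at -227. The second window held E-boxes at -187 and -4, GC boxes at -104 and -46 and TATAA at -25. The Ccnd3 window held GC boxes at -46 and 12 and no E-box. Of the 32851 windows of this length in the table, 72.3% held an E-box, 35.7% a GC box, 24.9% TATAA and 0.0883% the p53 element. These are matches of letters only.

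Cdkn1a (ENSMUSG00000023067, chromosome 17, 29090976 to 29100727, plus strand) encodes p21, the Cip/Kip inhibitor induced by MyoD and by p53. Myoblast levels were 225, 260 and 227 CPM for the control, 416, 349 and 438 for the overexpressor and 1492, 1688 and 1513 for the knockout. Myotube levels were 2515, 2394 and 2177 CPM for the control, 3088, 2982 and 2672 for the overexpressor and 4090, 4319 and 5152 for the knockout. The 6 groups stood in this order with no overlap between neighbouring groups, and knockout myoblasts lay between overexpressor myoblasts and control myotubes. In myoblasts, Cdkn1a was higher in the knockout, with 2.72 as log2 fold change (SE 0.11, adjusted p = 4.38e-13, edgeR quasi-likelihood test, as are all adjusted p-values below) and in the overexpressor by 0.76 (SE 0.10, adjusted p = 7.33e-06). Beside this, the summed level of 7 myotube markers was 9170 to 11720 CPM in knockout myoblasts, against 244 to 372 in control and 423 to 699 in overexpressor myoblasts. Their part in the Cdkn1a level was not tested.

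Differentiation raised Cdkn1a by 3.32 in the control (log2, SE 0.11, adjusted p = 1.74e-14), 2.86 in the overexpressor (SE 0.11, adjusted p = 1e-13) and 1.53 in the knockout (SE 0.10, adjusted p = 5.97e-10). The rise was smaller in the knockout than in the control, by a difference of -1.78 (SE 0.14, adjusted p = 1.31e-08). Myotubes of the knockout still held more Cdkn1a than control myotubes (log2 fold change 0.94, SE 0.10, adjusted p = 2.15e-07). Overexpressor myotubes exceeded control myotubes by 0.30 (SE 0.10, adjusted p = 0.0151), a call lost without control myotube C (adjusted p = 0.0729) or overexpressor myotube A (0.0555). The rise in the overexpressor differed from that in the control by -0.45 (SE 0.14, adjusted p = 0.0165). That call was lost with DESeq2 size factors (adjusted p = 0.0991), with library totals (0.121), with DESeq2 (0.102), and without overexpressor myoblast C (0.0524) or overexpressor myotube C (0.139).

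**Figure D1:**
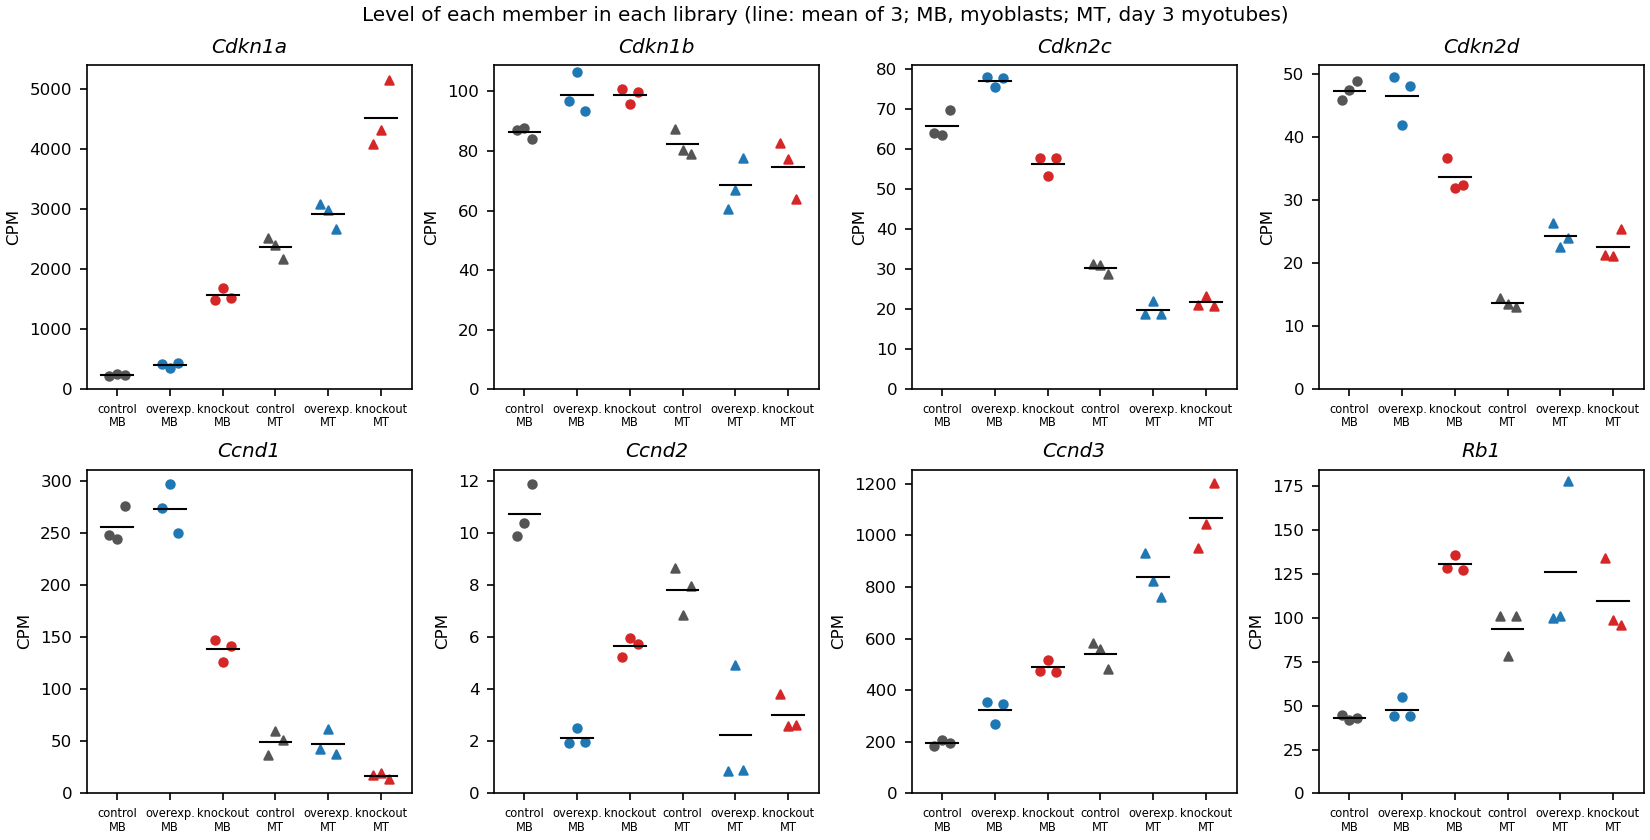
Level of each of the 8 tested genes in each library, in CPM on linear axes that start at 0, for control (grey), overexpressor (blue) and knockout (red) myoblasts (MB, circles) and day 3 myotubes (MT, triangles). Points are libraries A, B and C from left to right and lines are means. Cdkn1a climbs from 225 to 260 CPM in control myoblasts to 4090 to 5152 in knockout myotubes, and Rb1 is at 128 to 136 CPM in knockout myoblasts against 41.6 to 44.4 in control myoblasts.

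Cdkn1b (ENSMUSG00000003031, chromosome 6, 134920401 to 134925513) encodes p27, the Cip/Kip inhibitor that is regulated largely through its degradation. Its level moved little: group means lay between 68.4 and 98.9 CPM. Control libraries ran from 84.0 to 87.8 CPM in myoblasts and from 78.9 to 87.4 in myotubes, and these ranges overlapped. In the overexpressor it was at 96.7, 107 and 93.4 CPM in myoblasts and 60.5, 66.9 and 77.8 in myotubes, and in the knockout at 101, 95.9 and 100.0 and then 82.8, 77.5 and 63.7. Cdkn1b fell with differentiation in the overexpressor (log2 fold change -0.53, SE 0.09, adjusted p = 7.31e-05) and in the knockout (-0.40, SE 0.09, adjusted p = 0.00106), with no overlap between stages. In the control the change was -0.07 (95% interval -0.27 to 0.13, adjusted p = 0.529), and it passed the threshold with library totals (-0.31, adjusted p = 0.0111). The fall differed from that of the control by -0.46 in the overexpressor (SE 0.13, adjusted p = 0.00963, lost with library totals at 0.14). In the knockout the difference was -0.33 (SE 0.13, adjusted p = 0.044). This call was kept in only 6 of 18 fits that left out 1 library and was lost in 5 of 6 other settings, at adjusted p-values up to 0.255. Overexpressor myotubes were below control myotubes (-0.26, SE 0.09, adjusted p = 0.022), a call lost in 4 of 6 other settings, namely DESeq2 size factors (0.128), library totals (0.334), DESeq2 (0.151) and only the groups compared (0.193), and without control myotube A (0.0947), overexpressor myotube A (0.123) or B (0.0625). The knockout's higher level in myoblasts (0.20, adjusted p = 0.0877) passed the threshold with only the groups compared (0.000465) and without knockout myotube C (0.0448).

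Cdkn2a, which encodes p16 and, in another reading frame, Arf, and its neighbour Cdkn2b, which encodes p15, had 0 counts in all 18 libraries. They (ENSMUSG00000044303 and ENSMUSG00000073802) lie next to each other on chromosome 4 (89274471 to 89294653 and 89306299 to 89311039, minus strand). Their levels were therefore under the limit of 0.0375 to 0.0693 CPM in every library, and neither was tested. The genes around them were looked at after these zeros were seen. Mtap, which lies on one side from 89137122 to 89181081 and encodes an enzyme of methionine salvage, had 2540 to 8680 counts per library. Gm12606, from 89235699 to 89273403 between Mtap and Cdkn2a, had 0 to 4 counts. On the other side Gm12609, Gm12610, Gm12608, Gm27580 and Dmrta1, which ends at 89694772, had 0 counts in all libraries.

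Cdkn2c (ENSMUSG00000028551, chromosome 4, 109660876 to 109667189) encodes p18. Among myoblasts, control libraries stood at 64.0, 63.5 and 69.8 CPM, overexpressor libraries at 77.9, 75.4 and 77.6 and knockout libraries at 57.8, 53.2 and 57.7. Among myotubes, control libraries stood at 31.2, 30.9 and 28.7 CPM, overexpressor libraries at 18.7, 22.1 and 18.7 and knockout libraries at 20.9, 23.2 and 20.9. Every myotube library was below every myoblast library, and only the overexpressor and knockout myotubes overlapped. Cdkn2c fell with differentiation in the control (log2 fold change -1.12, SE 0.07, adjusted p = 2.84e-10), the overexpressor (-1.96, SE 0.08, adjusted p = 1.65e-13) and the knockout (-1.38, SE 0.08, adjusted p = 5.25e-11). The fall in the overexpressor was deeper than that in the control (difference -0.84, SE 0.11, adjusted p = 4.06e-06) and that in the knockout (-0.58, SE 0.11, adjusted p = 0.000238). Myotubes of both clones held less than those of the control (overexpressor -0.61, adjusted p = 1.4e-06, knockout -0.48, adjusted p = 1.89e-05). In myoblasts the overexpressor was higher than the control (0.23, adjusted p = 0.019) and the knockout lower (-0.23, adjusted p = 0.0152). The first of these was lost with library totals (0.0555), without the filter on low counts (0.0772), and without control myoblast A (0.0741) or B (0.0809) or overexpressor myoblast A (0.058) or C (0.0519), and the second without control myoblast C (0.0811) or knockout myoblast B (0.0789). The knockout's fall differed from the control's by -0.26 (adjusted p = 0.0514), and leaving out any of 6 libraries (control myoblast C, knockout myoblast B, control myotube C, overexpressor myotube A or B, knockout myotube B) brought it past the threshold (0.031 to 0.0498).

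Cdkn2d (ENSMUSG00000096472, chromosome 9, 21288410 to 21291407) encodes p19, whose level is known to peak in S phase in dividing cells. The myoblast libraries held 45.9, 47.4 and 48.9 CPM for the control, 49.6, 42.0 and 48.2 for the overexpressor and 36.7, 32.0 and 32.3 for the knockout. The myotube libraries held 14.4, 13.5 and 13.04 CPM for the control, 26.4, 22.5 and 23.9 for the overexpressor and 21.3, 21.1 and 25.3 for the knockout. Control myotubes were lowest, the myotubes of the clones overlapped each other, and control and overexpressor myoblasts overlapped at the top. Cdkn2d fell in the control (log2 fold change -1.80, SE 0.09, adjusted p = 7.71e-12), in the overexpressor (-0.94, SE 0.09, adjusted p = 4.06e-08) and in the knockout (-0.58, SE 0.09, adjusted p = 2.38e-05). The fall was smaller than that of the control for the overexpressor (difference 0.85, SE 0.13, adjusted p = 3.06e-05) and for the knockout (1.22, SE 0.13, adjusted p = 4.42e-07). Myotubes of both clones held more than those of the control (overexpressor 0.83, adjusted p = 3.63e-07, knockout 0.72, adjusted p = 1.72e-06), and in myoblasts it was lower in the knockout (-0.49, adjusted p = 0.000142). The INK4 genes that were expressed thus moved in opposite directions against the control in myotubes, Cdkn2c lower and Cdkn2d higher in both clones. The responses of the clones differed by -0.36 (adjusted p = 0.0269), which was lost in 3 other settings and without overexpressor myoblast A or C, knockout myoblast B or C, overexpressor myotube B or C, or knockout myotube C (adjusted p 0.0546 to 0.0985).

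Ccnd1 (ENSMUSG00000070348, chromosome 7, 144929931 to 144939925, minus strand) encodes cyclin D1, the D cyclin that growth factors induce and that opposes MyoD. Among myoblasts, control libraries stood at 248, 244 and 276 CPM, overexpressor libraries at 274, 297 and 250.0 and knockout libraries at 148, 127 and 142. Among myotubes, control libraries stood at 36.6, 60.2 and 51.1 CPM, overexpressor libraries at 42.3, 61.5 and 37.9 and knockout libraries at 18.1, 19.8 and 13.5. Control and overexpressor libraries overlapped at both stages, and the knockout was lowest at both. Ccnd1 fell with differentiation in the control (log2 fold change -2.38, SE 0.20, adjusted p = 4.95e-08), the overexpressor (-2.53, SE 0.20, adjusted p = 2.26e-08) and the knockout (-3.01, SE 0.21, adjusted p = 7.72e-09). Against the control it was lower in knockout myoblasts (-0.89, SE 0.19, adjusted p = 0.00104) and knockout myotubes (-1.52, SE 0.20, adjusted p = 7.13e-06). For the overexpressor the difference was 0.10 in myoblasts (95% interval -0.31 to 0.50) and -0.06 in myotubes (-0.47 to 0.35), the latter of the other sign in 4 of 6 other settings. The fall differed between knockout and control by -0.64 (adjusted p = 0.0642), past the threshold without control myotube A (0.0147), overexpressor myotube B (0.0282) or knockout myotube B (0.0473). The exons of Ccnd1 share 1100 bases with LTO1 on the opposite strand, at 15.3 to 22.5 CPM in group means, and whether reads were counted by strand is not known, so low Ccnd1 values are uncertain by reads of that gene.

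Ccnd3 (ENSMUSG00000034165, chromosome 17, 47505051 to 47599691, plus strand) encodes cyclin D3. The myoblast libraries held 185, 207 and 195 CPM for the control, 353, 270 and 346 for the overexpressor and 475, 519 and 472 for the knockout. The myotube libraries held 583, 558 and 481 CPM for the control, 930.1, 822 and 761 for the overexpressor and 951, 1042 and 1204 for the knockout. The groups stood in the same order as for Cdkn1a, with overlap only between knockout myoblasts and control myotubes. Ccnd3 rose with differentiation by 1.47 in the control (log2, SE 0.11, adjusted p = 1.47e-09), 1.38 in the overexpressor (SE 0.11, adjusted p = 3.22e-09) and 1.12 in the knockout (SE 0.11, adjusted p = 7.22e-08). Against the control it was higher in knockout myoblasts (1.32, SE 0.11, adjusted p = 1.1e-08), overexpressor myoblasts (0.72, SE 0.11, adjusted p = 2.78e-05), knockout myotubes (0.98, SE 0.11, adjusted p = 3.15e-07) and overexpressor myotubes (0.63, SE 0.11, adjusted p = 6.48e-05). Overexpressor myotubes were below knockout myotubes (-0.35, adjusted p = 0.0104), a call lost with only the groups compared (0.051) and without overexpressor myotube C (0.0822) or knockout myotube C (0.0708). The smaller rise in the knockout than in the control (-0.34, adjusted p = 0.0718) passed the threshold without overexpressor myoblast B (0.0377), control myotube C (0.0378) or knockout myotube C (0.0265). Ccnd3 exons share 361 bases with Bysl on the opposite strand, at 52.9 to 136 CPM in group means.

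Ccnd2 (ENSMUSG00000000184, chromosome 6, 127125162 to 127152193, minus strand) encodes cyclin D2 and was the least abundant of the D cyclins. Among myoblasts, control libraries stood at 9.91, 10.4 and 11.9 CPM, overexpressor libraries at 1.92, 2.52 and 1.96 and knockout libraries at 5.25, 5.97 and 5.75. Among myotubes, control libraries stood at 8.66, 6.87 and 7.96 CPM, overexpressor libraries at 0.861, 4.92 and 0.917 and knockout libraries at 3.83, 2.59 and 2.63. Overexpressor myotube B stood apart with 393 counts, against 58 in A and 66 in C. Against the control, Ccnd2 was lower in overexpressor myoblasts (log2 fold change -2.33, SE 0.48, adjusted p = 0.00118), overexpressor myotubes (-1.79, SE 0.46, adjusted p = 0.00394) and knockout myotubes (-1.37, SE 0.46, adjusted p = 0.0162). The difference in overexpressor myotubes became -3.13 without library B (adjusted p = 4.22e-10) and -1.41 and -1.32 without A or C, and with only the groups compared its call was lost (0.0759). In knockout myoblasts the difference of -0.92 had an adjusted p of 0.0964, although the libraries did not overlap. When only the groups compared were fitted, it passed the threshold (2.95e-08), as did the changes with differentiation in the control (0.00124) and the knockout (0.00103). Without overexpressor myotube B the difference in knockout myoblasts also passed (adjusted p = 4.19e-05), as did the changes with differentiation in the control (-0.45, 0.0118) and the knockout (-0.90, 6.76e-05). The change in the overexpressor went from 0.08 (adjusted p = 0.897) to -1.26 (3.61e-05) without that library, the difference between overexpressor and knockout myotubes from -0.42 to -1.76 (1.45e-06), and the difference of the overexpressor's response from the control's from 0.54 to -0.80 (0.0167). The call in knockout myotubes was lost without knockout myotube B (0.0564) or C (0.0579), and that between the clones' myoblasts (-1.41, adjusted p = 0.0232) without the filter (0.0564) and without overexpressor myoblast A (0.0702) or C (0.0695) or knockout myoblast B (0.0552). Without overexpressor myotube C, the difference in knockout myoblasts also passed (0.0398).

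To compare the D cyclins with each other, their CPM were divided by the length of the gene's exons in kilobases. In control myoblasts Ccnd1 made up 69.9% ± 1.89 of the summed D cyclin level, Ccnd3 28.7% ± 1.93 and Ccnd2 1.46% ± 0.0689 (SD, n = 3). In control myotubes Ccnd3 made up 84.4% ± 3.46 and Ccnd1 14.4% ± 3.53 (SD, n = 3). Knockout myoblasts stood between these states, with Ccnd3 at 64.9% ± 2.87 and Ccnd1 at 34.4% ± 2.91, and overexpressor myoblasts nearer to the control, with Ccnd3 at 38.7% ± 5.26 and Ccnd1 at 61.1% ± 5.23 (SD, n = 3). Among myotubes Ccnd3 reached 90.3% ± 2.57 (overexpressor) and 96.8% ± 0.844 (knockout), again as SD over n = 3. The Ccnd3 share did not overlap between any 2 lines in myoblasts, and in myotubes the knockout was above both other lines while control (82.4% to 88.4%) and overexpressor (87.3% to 92.1%) overlapped. The summed level was 77.8 ± 3.799 CPM per kilobase in control myoblasts and 72.9 ± 5.58 in control myotubes, with overlapping libraries. For the overexpressor it was 95.1 ± 3.05 and then 106 ± 10.2, also with overlap, and for the knockout 85.7 ± 1.10 and then 125 ± 14.1, without overlap (SD, n = 3). Shares are a description: 3 libraries against 3 cannot give an exact permutation p under 0.1. Both the shares and the summed level depend on the length used. With the longest transcript in place of all exons the Ccnd3 share of myoblasts was 42.0% (control), 53.1% (overexpressor) and 76.9% (knockout). Summed levels are given with all exons only, where Ccnd3 has 8775 bases, against 3858 in its longest transcript. The shorter length would give the rise of Ccnd3 with differentiation more weight in the sum. The overlap of summed levels between stages is therefore shown for all exons only.

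**Figure D2:**
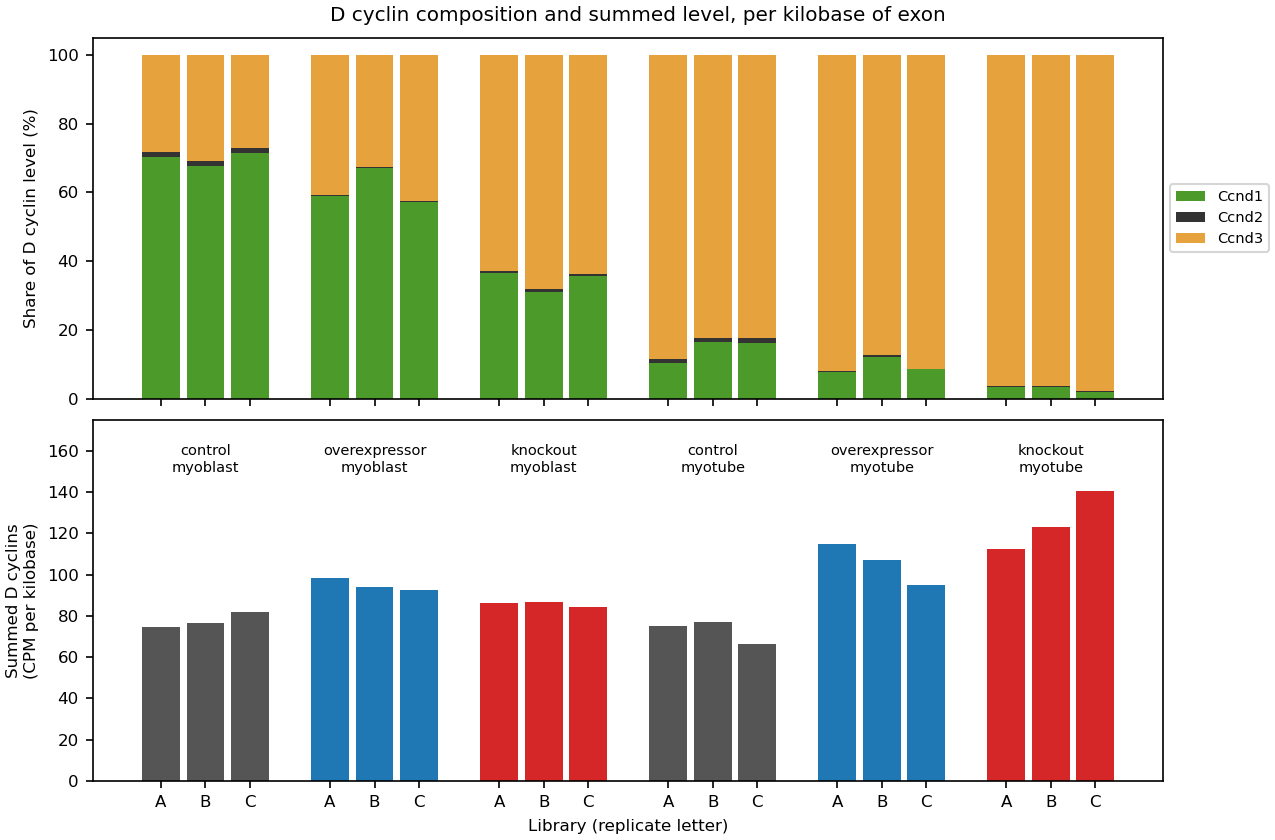
Composition of the D cyclin transcripts in each of the 18 libraries. Upper bars give the share of Ccnd1, Ccnd2 and Ccnd3 in the summed D cyclin level (%), lower bars the summed level in CPM per kilobase of exon, grey for control, blue for overexpressor and red for knockout. The Ccnd3 share is 27.1% to 30.8% in control myoblasts, and the knockout goes from 62.9% to 68.2% as myoblasts to 96.2% to 97.8% as myotubes.

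Rb1 (ENSMUSG00000022105, chromosome 14, 73183673 to 73325822, minus strand) encodes the pocket protein itself. Its myoblast levels were 44.4, 41.6 and 43.0 CPM for the control, 44.2, 54.7 and 43.9 for the overexpressor and 128, 136 and 128 for the knockout. Its myotube levels were 101, 78.4 and 101 CPM, 100.1, 101 and 178 and 134, 98.9 and 96.1 in the same order. The knockout myoblasts lay above all other myoblasts and above all control myotubes. Among myotubes, only overexpressor library C, at 178 CPM, was above them all, and knockout library A, at 134, lay among them. The myotubes of the 3 lines overlapped one another. Rb1 was higher in knockout than in control myoblasts (1.60 on the log2 scale, SE 0.20, adjusted p = 6.76e-06), and lower in overexpressor than in knockout myoblasts (-1.45, SE 0.20, adjusted p = 1.68e-05). It rose with differentiation in the control (1.12, SE 0.20, adjusted p = 0.000151) and the overexpressor (1.41, SE 0.20, adjusted p = 1.61e-05). In the knockout the change was -0.25 (95% interval -0.66 to 0.16, adjusted p = 0.27). The response of the knockout differed from that of the control by -1.37 (SE 0.28, adjusted p = 0.00084), and that of the overexpressor from that of the knockout by 1.66 (SE 0.28, adjusted p = 0.000217). In overexpressor myotubes the difference from the control of 0.43 (adjusted p = 0.0704) passed the threshold with DESeq2 size factors (0.0162), library totals (0.0213) or DESeq2 (0.0043), and without overexpressor myotube A (0.026) or B (0.0265). Without overexpressor myotube C, the library at 178 CPM, the difference between knockout and control myotubes, 0.23 (adjusted p = 0.307), became 0.30 (0.0247). Rb1 exons share 488 bases with Rcbtb2 and 408 with Lpar6, both on the opposite strand and at no more than 32.2 CPM in group means.

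**Figure D3:**
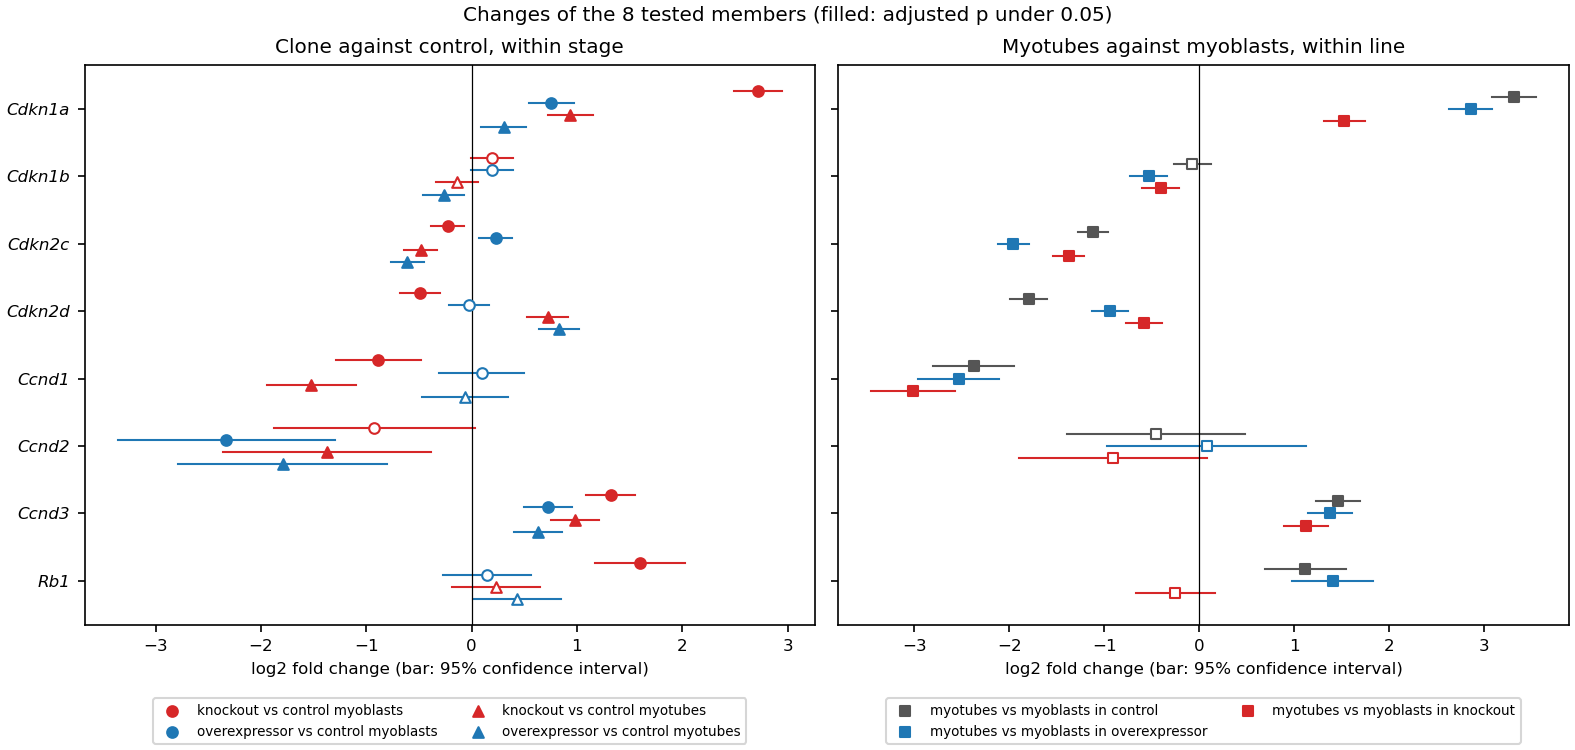
Log2 fold changes of the 8 tested genes with 95% confidence intervals, filled where the adjusted p is under 0.05. The left panel compares each clone with the control in myoblasts (circles) and myotubes (triangles), the right panel (squares) myotubes with myoblasts in each line, with the control in grey, the overexpressor in blue and the knockout in red. Cdkn1a and Ccnd3 lie to the right of 0 in all 7 comparisons, and Rb1 rises in the control (1.12) and the overexpressor (1.41) but has an open symbol in the knockout (-0.25).

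Counted over the 8 tested genes, 6 passed the threshold between knockout and control myoblasts, 3 higher and 3 lower, where 53.0% of all 17912 genes tested did (26.4% higher, 26.6% lower). Between overexpressor and control myoblasts 4 passed, 3 higher and 1 lower (40.4% of all genes, 20.7% higher and 19.7% lower), and between the clones' myoblasts 7 (52.6%). For myotubes, 6 passed between overexpressor and control, 3 each way (57.1%, 26.2% higher and 30.9% lower). Another 6 passed between knockout and control, 3 each way (68.0%, 31.0% higher and 37.0% lower), and 3 between the clones (59.7%). Differentiation changed 6 in the control, 3 each way (62.8%, 33.9% higher and 28.8% lower), and 7 in the overexpressor, 3 higher and 4 lower (62.8%, 29.8% and 33.0%). It changed 6 in the knockout, 2 higher and 4 lower (65.4%, 29.8% and 35.6%). When libraries were scaled by their totals alone, the part of all calls that was higher went from 54.0% to 38.0% in control differentiation, from 45.5% to 34.0% in knockout differentiation and from 45.9% to 57.8% between overexpressor and control myotubes. The response differed from the control for 4 genes in the overexpressor (39.0%) and 4 in the knockout (50.1%), and between the clones for 4 (46.7%). With this few genes and so large a part of the transcriptome past the threshold, the counts do not set these genes apart from the rest, and the result lies in which genes moved and how far. The log2 change of Cdkn1a in control differentiation was larger in size than that of 92.7% of the genes tested, and that of Cdkn1a between knockout and control myoblasts than that of 92.9%. Other called changes ranked lower. Against control myotubes, Cdkn1a stood at 64.4% in the knockout and 35.2% in the overexpressor, and Ccnd3 at 60.1% in the overexpressor. Rb1 stood at 72.2% in control differentiation. The median change of the 8 genes was -0.26 in control differentiation, against 0.07 over all genes, and -0.01 between knockout and control myoblasts, against 0.02.

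Between genes, levels were compared per kilobase of exon. In control myoblasts Cdkn1a was at 66.8 CPM per kilobase, Ccnd1 at 54.4, Cdkn2d at 30.1, Cdkn2c at 24.5, Ccnd3 at 22.3, Cdkn1b at 18.96, Rb1 at 7.15 and Ccnd2 at 1.14. In knockout myotubes Cdkn1a was at 1272 and Ccnd3 at 121 CPM per kilobase, while Cdkn1b (16.4), Cdkn2d (14.3), Cdkn2c (8.06) and Ccnd1 (3.64) were lower. Cdkn1a was thus the most abundant of the inhibitors in both groups. Across the 18 libraries, which share 6 group means, the log2 CPM of Cdkn1a followed that of Ccnd3 (Pearson r = 0.965) and ran against those of Ccnd1 (-0.918) and Cdkn2c (-0.877), as a description. Cdkn2d and Ccnd2 were nearly unrelated (r = -0.0395). Among 10129 candidate genes, the genes most like each in pattern over the 18 libraries were Usp2 and Ppfia4 for Cdkn1a (r = 0.996 each), Fndc3a (0.962) and Fam126a (0.936) for Cdkn1b, and Reep4 and Crybg1 for Cdkn2c (0.989 each). They were Tubb5 (0.988) and Cenps (0.983) for Cdkn2d, H2afz (0.99) and Entpd7 (0.988) for Ccnd1, Sema6d (0.926) and Pxk (0.898) for Ccnd2, Orai1 and Fam214b (0.991 each) for Ccnd3, and Prelid3b (0.97) and Mars2 (0.966) for Rb1.

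The kinases that the members bind or inhibit changed with differentiation. The counts of this and the next lists stand against the shares of all genes given above, which were 33.9% higher and 28.8% lower in control differentiation, 26.4% and 26.6% in knockout myoblasts, and 31.0% and 37.0% in knockout myotubes. In the differentiation of the clones these shares were 29.8% and 33.0% for the overexpressor and 29.8% and 35.6% for the knockout. Of 9 G1 CDKs, E cyclins and activators, 6 fell and 2 rose in the control (median log2 change -0.79). Cdk4, a partner of the D cyclins, fell in the control (-0.74, adjusted p = 6.21e-07), the overexpressor (-1.30) and the knockout (-0.44), and Cdk6, the other partner, fell in the control (-1.42), the overexpressor (-1.95) and the knockout (-1.70). Ccne2, an E cyclin, was the gene of this list that fell most in the control (-3.64, adjusted p = 1.96e-06), and Ccne1 fell too (-2.60), while Mnat1, a subunit of the CDK-activating kinase, rose most (0.54, adjusted p = 4.46e-05). Cdk2, the kinase that E cyclins use, fell in the control (-0.79, adjusted p = 2.53e-09) but rose in the overexpressor (0.43, adjusted p = 6.06e-06) and the knockout (0.42, adjusted p = 1.05e-05). In knockout myoblasts 1 of the 9 was higher than in the control (Cdk2, 0.51, adjusted p = 1.13e-06) and 3 were lower, Cdk6 most (-0.73, adjusted p = 3.75e-05). In knockout myotubes 3 were higher and 4 lower, with Cdk2 at the top (1.72, adjusted p = 1.03e-13) and Cdk6 at the bottom (-1.01, adjusted p = 7.74e-07).

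Of 12 pocket proteins, E2F and DP factors, which include Rb1's relatives and the factors these proteins bind, 8 fell and 3 rose with differentiation in each of the 3 lines. Rbl1, the pocket protein of cycling cells, fell in the control (-2.35, adjusted p = 1.24e-10), and E2f7, a repressor E2F, fell most (-4.46, adjusted p = 1.04e-14), while E2f2 rose most (1.94, adjusted p = 3.32e-12). In knockout myoblasts 6 of the 12 were lower than in the control and 4 higher. E2f1, an activator E2F, was lowest (-1.21, adjusted p = 3.3e-09) and E2f2 highest (0.96, adjusted p = 8.3e-08). Rbl2, the pocket protein of quiescent cells, was lower than in the control in overexpressor myoblasts (-0.82), knockout myoblasts (-0.90), overexpressor myotubes (-0.96) and knockout myotubes (-1.03, adjusted p = 1.3e-08). Rb1 itself, in contrast, did not pass the threshold in 3 of these 4 comparisons and was higher in knockout myoblasts. In knockout myotubes 6 were higher and 5 lower, E2f7 highest (2.62, adjusted p = 9.28e-12).

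All 20 genes of the S phase and mitosis list fell with differentiation in all 3 lines, with median log2 changes of -3.55 (control), -2.51 (overexpressor) and -1.89 (knockout), against 0.07, -0.02 and -0.08 over all genes. In the control, Mki67, a marker of cycling cells, fell (-3.62, adjusted p = 3.42e-08), as did Ccna2, the S phase cyclin (-3.92), and Mcm5, a subunit of the replicative helicase (-4.34, adjusted p = 1.06e-10). In knockout myoblasts, where Cdkn1a and Rb1 were higher, 13 of the 20 were lower than in the control and 1, Tyms (0.37, adjusted p = 0.00323), was higher (median -0.45). Ccnb2, a mitotic cyclin, was the lowest (-0.90, adjusted p = 4.38e-07). Values of 6 did not pass, among them Mki67 (-0.57, adjusted p = 0.0791) and Ccna2 (-0.22, adjusted p = 0.146). In overexpressor myoblasts 4 were lower and 1 higher, where 19.7% of all genes were lower and 20.7% higher. The total of 5 became 8 with only the groups compared and 3 without control myoblast C or overexpressor myoblast B or C. In myotubes 17 were higher in the overexpressor (median 1.00) and 16 in the knockout (median 0.99), with 2 lower in the knockout. Over all genes, 26.2% were higher and 30.9% lower in overexpressor myotubes, and 31.0% and 37.0% in knockout myotubes. Knockout myotubes thus held higher levels than control myotubes of both Cdkn1a and most S phase and mitosis genes. So did overexpressor myotubes, where the Cdkn1a difference was 0.30, a call kept in 16 of 18 fits that left out 1 library. Mki67 did not pass in knockout myotubes (-0.04, adjusted p = 0.9), and its sign turned in some other settings. Mcm5 was the highest in the knockout (2.18, adjusted p = 1.67e-07) and Rrm2, which encodes a ribonucleotide reductase subunit, the lowest (-0.73, adjusted p = 4.35e-08).

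**Figure D4:**
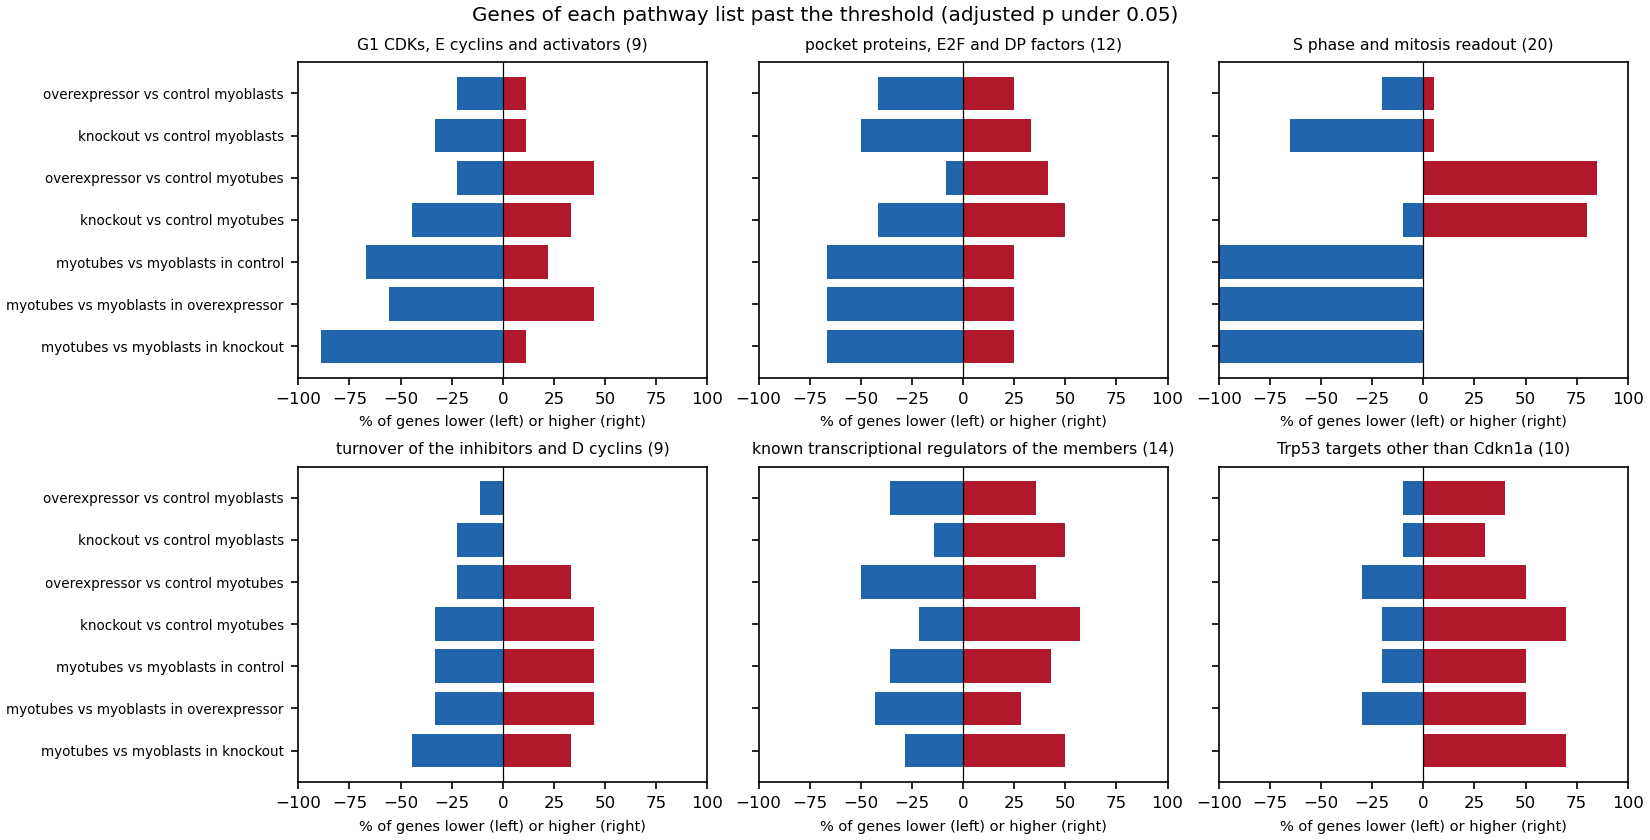
Share of the genes of 6 pathway lists (number of genes tested in brackets) that passed the threshold, lower to the left in blue and higher to the right in red, in the 4 comparisons of a clone with the control and the 3 comparisons of myotubes with myoblasts. The S phase and mitosis list is at 100% lower in all 3 differentiation comparisons and mostly higher in the myotubes of both clones against the control (17 and 16 of 20 genes).

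Genes that control the members were followed as well. Of 9 genes for the turnover of the inhibitors and D cyclins, none was higher and 2 were lower in knockout myoblasts, where 26.4% of all genes were higher and 26.6% lower. Skp2, the F-box protein that targets p27 for degradation, was lower there (-0.73, adjusted p = 5.72e-06) and in overexpressor myoblasts (-1.10, adjusted p = 6.31e-08), and fell in control differentiation (-2.39). In control differentiation 4 rose, Cul1 most (0.77, adjusted p = 0.00148), and 3 fell, Dtl most (-3.49, adjusted p = 1.84e-09), where 33.9% of all genes rose and 28.8% fell. In knockout myotubes 4 were higher, Dtl most (1.36, adjusted p = 6.44e-05), and 3 lower, Cul4b most (-0.94, adjusted p = 0.0042), where 31.0% of all genes were higher and 37.0% lower.

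Of 14 known transcriptional regulators of the members, 7 were higher and 2 lower in knockout than in control myoblasts (26.4% and 26.6% of all genes). Mef2c was highest (7.35, adjusted p = 2.18e-09), at 26.5 CPM against 0.163, and Smad3 lowest (-0.56, adjusted p = 7.05e-08). Myog, which encodes myogenin, was higher there by 3.46 (adjusted p = 6.34e-12) and in overexpressor myoblasts by 1.496 (adjusted p = 1.62e-07), and Myod1, whose product induces Cdkn1a, by 0.61 (adjusted p = 3.44e-05) and 0.69 (adjusted p = 1.29e-05). In control differentiation 6 rose, Mef2c most (8.90, adjusted p = 1.06e-10), and 5 fell, Id3 most (-4.71, adjusted p = 1.14e-13), while Myod1 did not pass (0.05, adjusted p = 0.662, and -0.19 with library totals). In knockout myotubes 8 were higher, Tbx2, a repressor of Cdkn1a, most (5.26, adjusted p = 7.38e-12), and 3 lower, Myc most (-0.77, adjusted p = 8.26e-07). Trp53, which encodes p53, differed from the control by 0.11 in knockout myoblasts (adjusted p = 0.313), and was lower in overexpressor myoblasts (-0.33, adjusted p = 0.00453). It was higher in knockout myotubes (0.44, adjusted p = 0.000231), lower in overexpressor myotubes (-0.62, adjusted p = 6.56e-06), and fell in control differentiation (-0.51, adjusted p = 5.45e-05). Of 10 other p53 targets, 3 were higher in knockout myoblasts, Aen most (0.77, adjusted p = 1.65e-08), and Zmat3 was lower (-0.42, adjusted p = 1.15e-05), where 26.4% of all genes were higher and 26.6% lower. With only the groups compared, 7 in place of 4 passed. In knockout myotubes 7 were higher, Btg2 most (1.78, adjusted p = 2.28e-10), and 2 lower, Sesn2 most (-1.74, adjusted p = 2.05e-10), where 31.0% of all genes were higher and 37.0% lower. In control differentiation 5 rose, Sesn2 most (2.33, adjusted p = 3.38e-12), and 2 fell, Btg2 most (-0.53, adjusted p = 0.000496), where 33.9% of all genes rose and 28.8% fell.

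Of the other CDK inhibitors, Cdkn1c, the Cip/Kip gene for p57, rose with differentiation in the control (2.22, adjusted p = 0.0023) and was lower than in the control in overexpressor myoblasts (-3.94, adjusted p = 0.00047) and knockout myoblasts (-1.58, adjusted p = 0.0329). The call in knockout myoblasts was lost without the filter on low counts (0.0831) and without any 1 of the 3 control or 3 knockout myoblast libraries (0.0583 to 0.0984). Its counts in overexpressor myotubes ran from 81 to 844, the lowest in library B, which was the highest of these libraries for Ccnd2. Cdkn3, which encodes a phosphatase of CDKs that rises in cycling cells, fell in the control (-3.16, adjusted p = 2.05e-10) and was higher in knockout than in control myotubes (1.07, adjusted p = 0.000211).

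Markers of other cells moved with the groups as follows. The 5 fibroblast markers summed to 314 to 393 CPM in control myotubes and to 17.4 to 75.01 in the 5 other groups. The 5 markers of reserve or quiescent satellite cells summed to 219 to 241 CPM in control myoblasts and 308 to 319 in control myotubes, against 61.1 to 99.8 in the myoblasts and 105 to 123 in the myotubes of the clones, with Calcr at the floor in every group. Adipocyte, endothelial and macrophage lists summed to at most 2.27 CPM in any library. All 5 myoblast and 7 myotube markers were above the floor in every group. The 5 myoblast markers (Myod1, Myf5, Des, Vim and Cdh15) summed to 5536 to 5770 CPM in control myotubes and 10960 to 13660 in knockout myotubes, where Cdkn1a and most S phase and mitosis genes were also higher. They summed to 6804 to 7223 CPM in control and 8276 to 8641 in knockout myoblasts. In the knockout the sum was thus higher in myotubes than in myoblasts, so it does not measure how many myoblasts were left. In overexpressor cells the 5 myoblast markers summed to 9860 to 10910 CPM in myoblasts and 7583 to 9039 in myotubes. The 7 myotube markers summed to 13680 to 14130 CPM in control myotubes, 20990 to 23120 in overexpressor myotubes and 29920 to 35720 in knockout myotubes. The part of these cells in the levels of the CDK inhibitors, D cyclins and Rb1 was not tested.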

How the data were processed

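The authors deposited a table of raw read counts per gene ID for 18 libraries, which was used as deposited. Their variance-stabilised table was not used here. The submitters' processing notes name STAR 2.7.9a, featureCounts, Subread 2.0.3, FastQC 0.11.7, DESeq2 1.32.0 and mm10, with no roles. Neither the annotation release nor a strand setting is given in the sources used here. Of 55450 gene IDs, 55190 matched the GENCODE annotation of GRCm38, which gave symbols, coordinates and exon lengths.

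Counts were scaled by TMM and tested with edgeR 4.0.16 (quasi-likelihood, robust, filterByExpr by group, limma 3.58.1, R 4.3.3) in 1 fit over 18 libraries with 1 coefficient for each of 6 groups and 12 residual degrees of freedom. Genes were called at a Benjamini-Hochberg adjusted p under 0.05 over the 17912 genes tested. The 12 contrasts compared the lines at each stage, the stages in each line, and the responses to differentiation. TMM factors ran from 0.895 to 1.08. The closest pair of replicate libraries had a chi-square per degree of freedom of 4.55. The furthest pairs were overexpressor myotube C with A (114.5) and with B (109.9), against 22.2 for A with B. The 6 alternatives were DESeq2 size factors, library totals without TMM, no filter, DESeq2 1.42.0, only the groups of the contrast, and the replicate letter as a block, and each of the 18 libraries was left out in turn.

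Named are all 10 genes, the 2 genes most correlated with each (mean of at least 5 CPM, log2 CPM with a prior count of 2), from each pathway list the highest and lowest called gene in 3 comparisons, and 14 cell cycle and myogenic genes named by symbol. Mtap and its neighbours were added after values were seen. The genes and lists were chosen with earlier results of these data known. In simulated counts for knockout against control myoblasts (17235 genes, 200 changed), edgeR called 91% of the changed genes with the right sign and 19 of 17035 unchanged ones. Few genes were changed there, by steps larger than many changes given here, and the spread was that of the fit itself. Small changes and errors in the scaling between groups were therefore not tried.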

Additional observations from a re-analysis of the deposited data

Results flagged for a closer look

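Of the 24 differences between the differentiation responses of 2 lines, 12 passed the test of the difference itself (edgeR quasi-likelihood test, adjusted p under 0.05), and all 12 are given here on the log2 scale. Over all genes tested, 39.0% passed for overexpressor minus control, 50.1% for knockout minus control and 46.7% for overexpressor minus knockout. The count is near these shares and does not set the genes apart. Against the control, the knockout's response was lower for Cdkn1a (-1.78), Rb1 (-1.37) and Cdkn1b (-0.33) and higher for Cdkn2d (1.22). Against the control, the overexpressor's response was lower for Cdkn2c (-0.84), Cdkn1b (-0.46) and Cdkn1a (-0.45) and higher for Cdkn2d (0.85). The overexpressor's response exceeded the knockout's for Rb1 (1.66) and Cdkn1a (1.33) and was below it for Cdkn2c (-0.58) and Cdkn2d (-0.36). Of these 12 calls, 8 held in all 6 alternatives and with each of the 18 libraries left out. Cdkn1b in the knockout held in 1 of 6 alternatives and 6 of 18 left-out libraries, Cdkn1a in the overexpressor in 3 of 6 and 16 of 18, Cdkn2d between the clones in 3 of 6 and 11 of 18, and Cdkn1b in the overexpressor in 5 of 6 and 18 of 18. The comparisons with the control share its libraries. The median of all genes was -0.12 for knockout minus control and within 0.07 of 0 for both other differences.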

How the results depend on the processing

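Of 96 results (8 genes in 12 comparisons), 60 kept direction and side of the threshold under all 6 alternatives and all 18 left-out libraries, among them 51 of the 63 called. The number of genes called moved by more than 1.5 times in 2 cases: 2 in place of 4 for the overexpressor's response against the control with library totals, and 2 to 5 in place of 3 between the clones' myotubes with 1 library left out (5 without overexpressor myotube B). The sign of 9 differences that were not called turned. Cdkn1b between the clones' myoblasts became -0.0142 with library totals, -0.0218 without a filter and -0.000965 with the replicate block, and ran from -0.0562 to 0.0406 with 1 library left out. Ccnd1 between overexpressor and control myotubes became 0.0544 with DESeq2 size factors, 0.0866 with library totals, 0.0262 with only its groups and 0.0535 with DESeq2 (-0.295 to 0.179 with 1 library left out). Ccnd3 in the overexpressor's response against the control became 0.0228 with DESeq2 size factors and with DESeq2 and 0.099 with library totals (-0.204 to 0.0878), and Ccnd1 0.0298 with library totals (-0.389 to 0.0933). Ccnd2 in overexpressor differentiation became -0.0254 with the replicate block (-1.26 to 0.50). With 1 library left out, Ccnd2 ran from -0.804 to 1.02 in the overexpressor's response against the control and from -0.35 to 1.39 against the knockout, Cdkn2d from -0.0737 to 0.0447 between overexpressor and control myoblasts, and Rb1 from -0.0973 to 0.372 between the clones' myotubes. The Ccnd2 share difference ran from -0.17 to 0.0334 percentage points between the clones' myotubes and from -0.148 to 0.056 in overexpressor differentiation. Mki67 between knockout and control myotubes became 0.0862 with DESeq2 size factors, 0.0103 with library totals, 0.0162 with only its groups and 0.0857 with DESeq2 (-0.324 to 0.241), and Skp2 0.0223 with DESeq2 size factors and 0.0247 with DESeq2 (-0.182 to 0.00672). Myod1 in control differentiation became -0.19 with library totals and -0.0162 with only its groups (-0.0178 to 0.119). The cause was not tested. Library totals moved the median of all genes from 0.07 to -0.17 in control differentiation, from -0.08 to -0.24 in knockout differentiation and from -0.05 to 0.14 in the overexpressor's response against the control. Replicate letters did not mark pairs: of 27 same-letter pairs 3 correlated over 0.1 (range -0.36 to 0.26). With the letter as a block the count of genes called stayed the same in all 12 comparisons, and the calls for Cdkn1b (-0.34, adjusted p = 0.0607) and Ccnd1 (-0.64, adjusted p = 0.05) in the knockout's response against the control changed.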
